A study of Mus musculus with 10 samples.

Results

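The genes described here are 40 mitosis and G2/M genes, a fixed list of genes whose products carry cells from G2 through mitosis to cytokinesis. They were taken by symbol from the 52550 genes of the deposited expression table, and all 40 were found in it. For description they were placed in 7 roles. The roles were cyclins, CDK1 and the anaphase-promoting complex (7 genes), mitotic kinases and the spindle checkpoint (5), the chromosomal passenger complex (3), centromere and kinetochore (5), spindle motors and microtubule-binding proteins (8), central spindle and cytokinesis (6), and chromosome structure (6).

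In dividing cells these transcripts accumulate in G2 and mitosis. Cyclin B with CDK1 drives entry into mitosis, the spindle checkpoint holds the anaphase-promoting complex until every kinetochore is attached, and the central spindle then guides cytokinesis. Precursors of conventional dendritic cells (cDCs) still divide in the spleen, and the mature cDCs they form divide much less, so the level of these genes in a bulk sample follows both the share of cells in division and the transcript content of each cell. Many promoters of the family carry a cell-cycle genes homology region (CHR), which the LIN54 subunit of the MuvB complex binds, and CCAAT boxes, which the trimeric factor NF-Y binds. MuvB acts as a repressor in the DREAM complex with the pocket protein RBL2 (p130) or RBL1 (p107), and as an activator with B-MYB (gene Mybl2) and FOXM1.

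RNA was sequenced from sorted splenic precursors of C57BL/6 mice, in 4 groups and 10 libraries. Wild-type (WT) mice gave 3 libraries of pre-cDC1 and 2 of pre-cDC2, and CD11c-cre Adam10fl/fl mice (KO below) gave 3 libraries of pre-cDC1 and 2 of pre-cDC2. In the KO mice Cre made under the CD11c promoter deletes a loxP-flanked segment of Adam10, which encodes a membrane protease, in cells that have made CD11c (Itgax), so not in pre-cDCs alone. The labels give no age, do not say whether the WT mice carried Cre or floxed alleles, and do not say that replicates were separate animals, so p-values measure only the spread between these libraries. Expression is given as log2 RPKM, that is log2 of reads scaled to gene length and to library depth (reads per kilobase per megaread) with a small prior count, and every difference below is a difference of log2 RPKM. In these bulk libraries fewer cells of a type and less RNA per cell cannot be told apart.

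Recovered totals were 7862417 to 13177642 reads per library. Between the 2 libraries of WT pre-cDC2 the correlation across genes was 0.774, against 0.867 to 0.886 in the other pairs within a group, and replicate 2 was the library apart from the other pre-cDC2 libraries. Averaged in log2 RPKM, 20 T cell markers stood at 2.03 in WT pre-cDC2 replicate 2, 6.38 in replicate 3, and 5.88 and 5.95 in the KO libraries of that cell type. In pre-cDC1 the T cell average was -4.06 to -0.77. Core cDC genes took 2.15% of reads in WT pre-cDC2 replicate 2 and 0.751% in replicate 3. In KO pre-cDC2 replicates 1 and 2 they took 0.824% and 0.786%. These shares were mostly reads of Cd74, H2-Ab1, H2-Aa and H2-Eb1 (130046, 50754, 42425 and 24823 of 283905 in WT replicate 2). The genes of the cDC2 programme averaged 4.88, 3.45, 3.50 and 3.71 log2 RPKM in the same 4 libraries, in that order. WT replicate 2 was thus the pre-cDC2 library with the highest values for these cDC genes and the lowest for T cell markers. The labelled types matched their markers in part. The cDC1 receptor gene Xcr1 lay between 7.58 and 8.30 in pre-cDC1 and between -0.46 and 0.64 in pre-cDC2, and Ly6c2 between 9.22 and 9.62 in pre-cDC2 and 2.70 and 3.80 in pre-cDC1. The core cDC factor gene Zbtb46 was lower in pre-cDC2 (3.78 to 4.99) than in pre-cDC1 (5.47 to 5.66). Of 13 tested genes of the cDC2 programme 11 were higher in pre-cDC2 than in pre-cDC1 in WT (2 called by limma) and 10 in KO (all 10 called). Among them Cd209a lay between 7.44 and 9.13 in pre-cDC2 and 3.86 and 7.14 in pre-cDC1, and the factor gene Irf4 between 4.11 and 5.81 and between -2.84 and 2.73, while Clec4a4 had at most 9 reads in any library. The Adam10 gene had 28, 48 and 10 reads among WT libraries of pre-cDC1 and 9, 3 and 13 among KO libraries. For pre-cDC2 these were 228 and 1261 (WT) and 909 and 742 (KO). That count takes in exons outside the deleted segment and does not check the deletion.

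The 40 genes were low to moderate in level. In WT pre-cDC1 the group means ran from -2.08 log2 RPKM for Cenpf, a kinetochore-associated protein, to 4.69 for Smc4, an ATPase core subunit of condensin. Below Smc4 came Racgap1 at 3.73 ± 0.36 (SD, n = 3), Tacc3 at 3.21 ± 0.13, Aurkb at 3.15 ± 0.31 and Cdc20 at 3.04 ± 0.24. The last 3 are neighbours whose libraries overlapped. The median gene had 97 to 131 reads per library of WT pre-cDC1 and 163 to 241.5 per library of KO pre-cDC1. For pre-cDC2 libraries the range was 70 to 107.5. From 1 to 15 genes per library had fewer than 50 reads, so the low genes carry a large counting error. The SD over replicates reached 2.64 log2 for Nuf2 in WT pre-cDC1, where replicate 2 had 2 reads, and 2.92 for Kif4 in KO pre-cDC2. By contrast it was 0.03 for Nusap1 in WT pre-cDC1 and 0.03 for Kif11 in KO pre-cDC1.

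**Figure D1:**
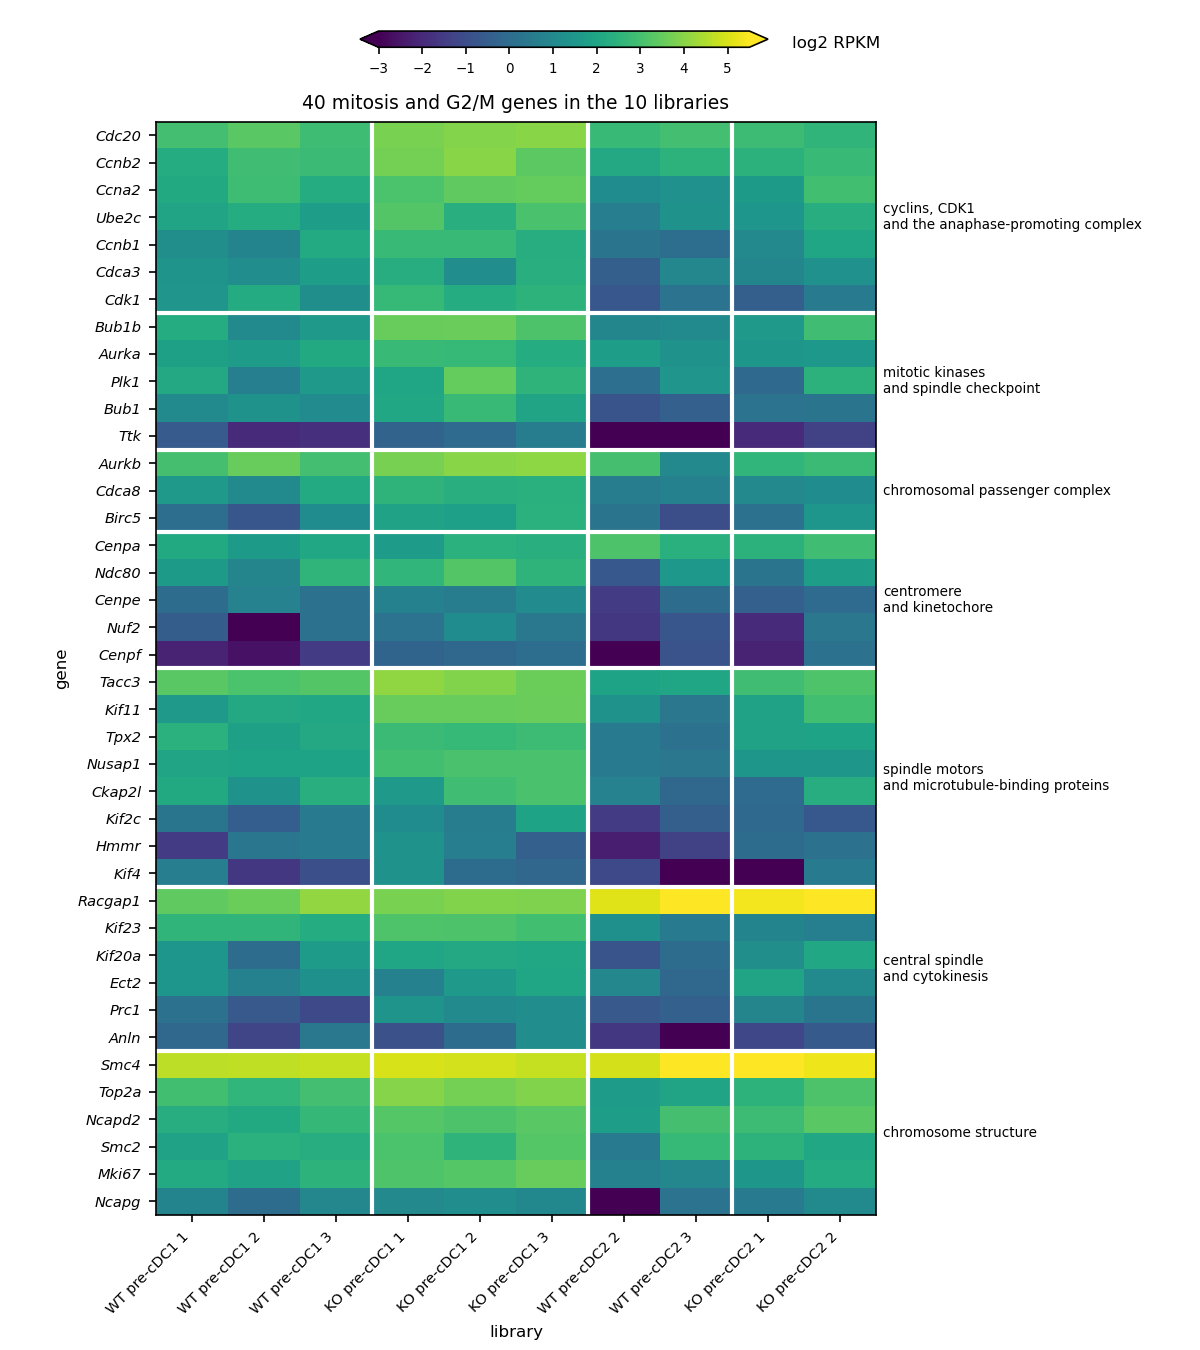
Level of each of the 40 genes (rows, grouped by role) in each of the 10 libraries (columns, named by group and replicate number), with colour giving log2 RPKM. KO pre-cDC1 columns are brighter than WT pre-cDC1 columns in most rows (library means 2.33 to 2.43 against 1.14 to 1.65), and Racgap1 and Smc4 are brightest in pre-cDC2.

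Averaged over the 40 genes, the libraries stood at 1.51, 1.14 and 1.65 log2 RPKM in WT pre-cDC1 and at 2.33, 2.39 and 2.43 in KO pre-cDC1. For pre-cDC2 the WT averages were 0.33 and 0.58 and the KO averages 1.05 and 1.72. No KO library overlapped the WT libraries of its own cell type. As a share of all reads the 40 genes took 0.0704% to 0.0849% in WT and 0.125% to 0.136% in KO pre-cDC1. For pre-cDC2 the shares were 0.0751% and 0.107% (WT replicates 2 and 3) and 0.113% and 0.136% (KO replicates 1 and 2), so WT replicate 3 was close to KO replicate 1. Racgap1 and Smc4 together held 17.2% to 28.8% of the reads of the 40 genes in pre-cDC1 libraries and 43.4% to 62.9% in pre-cDC2 libraries, so a summed read count gives those 2 genes much of the weight. Without them the share of all reads was 0.0505% to 0.0604% in WT pre-cDC1 libraries and 0.102% to 0.112% in KO pre-cDC1 libraries. It was 0.0335% and 0.0398% for WT pre-cDC2, and 0.0541% and 0.0769% for KO pre-cDC2.

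Promoter sequence was a feature that the choice of genes did not use. RefSeq promoter windows of GRCm38.p6, from 250 bases before to 50 after the annotated start, were matched by symbol for 35 of the 40 genes, with 37 windows. The CCAAT box was sought as CCAAT and the CHR as TTTGAA, on both strands. CCAAT was found for 28 of the 35 genes (80%), against 37.4% of all 32851 mouse windows and 42.5% of the 8980 tested genes with a window. TTTGAA was also found for 28 of the 35 (80%), against 17.9% of all windows and 14.6% of tested genes. Both were found for 25 of the 35 (71.4%), against 6.95% of all windows and 5.85% of tested genes, and the matches overlapped each other in 1 window. Of 3 forms of the E2F site searched in the same way, TTTGGCGC, TTTCCCGC and TTTCGCGC, each was found for 1 gene (2.86%), against 0.514%, 1.07% and 0.323% of all windows and 1.16%, 2.48% and 0.746% of tested genes. A match is a run of letters and not a shown site of binding.

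The position of the matches also differed between the motifs. Of 39 TTTGAA matches in the 37 windows, 29 (74.4%) began within 50 bases of the gene start, against 25.3% of the TTTGAA matches in all windows. Of 71 CCAAT matches, 42 (59.2%) began between 150 and 31 bases before the start, against 50.5% in all windows. Ect2 and Prc1 had 2 overlapping windows each, so their matches were counted in both windows. The 4 promoters printed first are those of the genes with the smallest p in KO against WT pre-cDC1 among the genes with both motifs, and the last 2 hold neither. Capitals mark CCAAT and TTTGAA, or ATTGG and TTCAAA where the match is on the opposite strand. Each run reads 5′ to 3′ on the strand of the gene, from 200 bases before to 30 after the start.
Cdc20: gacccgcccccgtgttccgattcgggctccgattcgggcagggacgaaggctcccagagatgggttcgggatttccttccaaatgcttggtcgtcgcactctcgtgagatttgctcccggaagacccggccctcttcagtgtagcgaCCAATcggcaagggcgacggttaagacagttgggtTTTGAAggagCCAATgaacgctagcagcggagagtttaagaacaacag
Top2a: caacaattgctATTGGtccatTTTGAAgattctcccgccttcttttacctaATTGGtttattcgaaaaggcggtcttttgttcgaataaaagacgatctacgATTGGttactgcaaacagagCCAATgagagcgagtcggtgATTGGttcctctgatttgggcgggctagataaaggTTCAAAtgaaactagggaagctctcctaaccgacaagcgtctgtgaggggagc
Kif11: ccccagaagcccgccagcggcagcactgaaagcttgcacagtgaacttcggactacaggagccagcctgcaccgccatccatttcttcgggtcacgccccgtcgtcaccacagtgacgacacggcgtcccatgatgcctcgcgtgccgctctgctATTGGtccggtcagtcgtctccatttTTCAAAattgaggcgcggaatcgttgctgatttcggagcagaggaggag
Bub1b: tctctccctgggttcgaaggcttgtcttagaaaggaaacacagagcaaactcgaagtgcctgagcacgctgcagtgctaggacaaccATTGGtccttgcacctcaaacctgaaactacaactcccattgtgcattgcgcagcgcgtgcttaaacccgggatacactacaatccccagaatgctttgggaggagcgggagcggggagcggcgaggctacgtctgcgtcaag
Nusap1: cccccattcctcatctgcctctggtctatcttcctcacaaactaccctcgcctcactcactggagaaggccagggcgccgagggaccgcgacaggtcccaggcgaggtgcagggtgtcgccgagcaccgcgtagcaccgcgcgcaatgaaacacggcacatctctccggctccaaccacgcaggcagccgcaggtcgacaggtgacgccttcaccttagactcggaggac
Tacc3: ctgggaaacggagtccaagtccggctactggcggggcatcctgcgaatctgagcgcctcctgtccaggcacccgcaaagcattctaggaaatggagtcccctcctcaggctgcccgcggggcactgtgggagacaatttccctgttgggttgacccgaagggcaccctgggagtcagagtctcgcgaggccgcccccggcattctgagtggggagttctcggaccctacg
In Cdc20 (chr4:118437314-118437543, minus strand) the TTTGAA began 18 bases before the start, between CCAAT matches 53 and 8 bases before it. Top2a (chr11:99024160-99024389, minus strand) held 5 CCAAT matches and 2 TTTGAA matches in the printed stretch, the last TTTGAA at 23 bases before the start. Kif11 (chr19:37376182-37376411, plus strand) held 1 of each, at 45 and 19 bases before the start. Bub1b (chr2:118598011-118598240, plus strand) held a CCAAT at 113 bases before the start, and its TTTGAA began at base 40 after the start, beyond the printed stretch. Nusap1 (chr2:119618098-119618327, plus strand) and Tacc3 (chr5:33657928-33658157, plus strand) had no match of either motif in their windows, as had Birc5 and Nuf2.

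**Figure D2:**
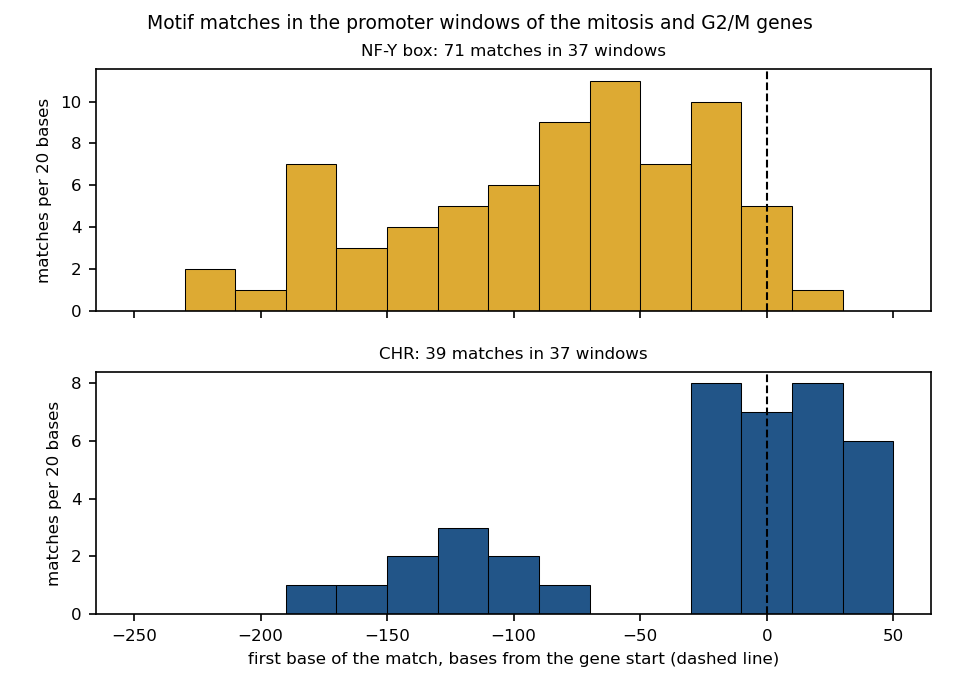
Positions of the CCAAT (NF-Y box, 71 matches) and TTTGAA (CHR, 39 matches) runs in the 37 promoter windows, as matches per 20 bases against distance from the gene start in bases. TTTGAA matches gather around the start (29 within 50 bases), and CCAAT matches lie mostly upstream of it (42 between 150 and 31 bases before it).

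KO and WT pre-cDC1 were compared to find transcripts that differ when CD11c-expressing cells carry the deletion. All 39 tested genes were higher in KO, against 47.8% of the 14787 genes tested, with a median difference of 0.86 log2 (range 0.12 to 2.25) where the median of all genes was -0.00. No gene of the 40 passed limma's test after adjustment over all genes (0 called, lowest adjusted p = 0.146), in a comparison in which 4 genes in all were called (0.0271%), each of them lower in KO. At an unadjusted p below 0.05 there were 19 of the 39, all higher, against 3.89% of all genes in that direction, and voom on the recovered reads called 0 as well. The 3 KO libraries lay above all 3 WT libraries for 27 of the 39, against 7.88% of all genes, and the difference was above 1 log2 for 17, against 7.61%. The median stayed between 0.81 and 0.90 when each library was left out in turn. The genes were chosen with results of these libraries known, so the count of higher genes is no independent evidence of direction.

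Ttk, the checkpoint kinase MPS1, was the 1 gene not tested, because it exceeded 0 log2 RPKM in a single library. It had 30, 11 and 14 reads in WT pre-cDC1 and 41, 47 and 56 in KO pre-cDC1. Scaled to total reads, KO was 2.7 times WT (exact 95% interval 1.97 to 3.76, counting error only). WT pre-cDC2 gave 2 and 1 reads and KO pre-cDC2 gave 12 and 17, a ratio of 13.7 (4.24 to 70.2). Its KO libraries were above its WT libraries in both cell types.

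Among the cyclins, CDK1 and the anaphase-promoting complex, the 7 genes had a median difference of 0.87 log2 in pre-cDC1. Cdc20, the coactivator through which the anaphase-promoting complex starts anaphase, stood at 2.96, 3.31 and 2.86 log2 RPKM in WT pre-cDC1 replicates 1, 2 and 3 and at 3.80, 3.92 and 4.0 in KO. The lowest KO library was above the highest WT library, a difference of 0.86 ± 0.18 log2 (SE; 3 libraries a group; limma adjusted p = 0.151). Ccnb2, a B-type cyclin of CDK1, stood at 2.27, 2.91 and 2.81 in WT and 3.74, 3.99 and 3.36 in KO. Again the groups did not overlap (1.03 ± 0.25; adjusted p = 0.202). Differences of 1.19 ± 0.42 for the other B-type cyclin Ccnb1, 0.91 ± 0.35 for Ccna2, which acts from S phase to early mitosis, and 0.87 ± 0.36 for Ube2c, the ubiquitin-conjugating enzyme of the anaphase-promoting complex, had unadjusted p-values below 0.05. Cdk1 itself (0.83 ± 0.43) and Cdca3 (0.51 ± 0.47), an adaptor for degradation of the mitosis inhibitor WEE1, did not reach that level.

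Of the mitotic kinases and checkpoint genes, Bub1b had the largest difference among the tested ones. Bub1b encodes BUBR1, which with CDC20 forms part of the inhibitor of the anaphase-promoting complex. Its levels were 2.26, 1.07 and 1.59 log2 RPKM in WT pre-cDC1 and 3.51, 3.57 and 3.12 in KO. Every KO library was higher than every WT library, by 1.76 ± 0.40 (limma adjusted p = 0.175). The checkpoint kinase Bub1 differed by 1.10 ± 0.36 and the centrosomal kinase Aurka by 0.69 ± 0.27, both without overlap. Plk1, the kinase that acts at centrosomes, kinetochores and the midzone, differed by 1.23 ± 0.72 with overlapping groups.

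The 3 genes of the chromosomal passenger complex, the mobile kinase complex of inner centromere and midzone, did not overlap between the groups. Birc5 (survivin) differed by 1.89 ± 0.60, Cdca8 (borealin) by 0.81 ± 0.33 and the kinase Aurkb by 0.77 ± 0.43. The 5 centromere and kinetochore genes had a median of 1.11 and none at an unadjusted p below 0.05. Within this role the values were least precise. Nuf2, of the NDC80 complex that grips microtubules, differed by 2.25 ± 1.24, and by 0.75 without WT pre-cDC1 replicate 2, the library with 2 reads. Cenpf differed by 1.97 ± 0.93, Ndc80 by 1.11 ± 0.65, the kinetochore kinesin Cenpe by 0.46 ± 0.53 and Cenpa, the centromeric histone H3 variant, by 0.21 ± 0.31.

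Spindle motors and microtubule-binding proteins held the gene with the smallest p. Nusap1, which bundles spindle microtubules near chromosomes, stood at 1.98, 1.94 and 1.92 log2 RPKM in WT pre-cDC1 and at 2.92, 3.05 and 3.07 in KO. The replicates were tight in both groups, and the difference was 1.07 ± 0.22 (limma adjusted p = 0.146). A fit of the 2 pre-cDC1 groups alone called it (limma adjusted p = 0.0426), the 1 call of the 40 in that fit (all genes 0.358%). Kif11, the kinesin that pushes spindle poles apart, stood at 1.60, 2.13 and 2.09 in WT and 3.52, 3.53 and 3.57 in KO, a difference of 1.60 ± 0.35 (adjusted p = 0.164) between groups that did not overlap. Tacc3 (0.64 ± 0.19), which steadies spindle fibres, and Tpx2 (0.64 ± 0.25), the activator of Aurora A, were smaller. The microtubule depolymerase Kif2c (1.11 ± 0.57), the chromokinesin Kif4 (1.03 ± 1.16), Hmmr (0.74 ± 0.73) and Ckap2l (0.55 ± 0.65) had wider errors.

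Central spindle and cytokinesis genes were the role with the lowest median, 0.51. Prc1, which crosslinks the antiparallel microtubules of the midzone, stood at 0.17, -0.61 and -1.13 log2 RPKM in WT pre-cDC1 and 1.41, 1.05 and 1.18 in KO. The groups did not overlap (1.73 ± 0.49; limma adjusted p = 0.274). The midzone kinesins Kif20a and Kif23 differed by 1.03 ± 0.50 and 0.62 ± 0.27. The genes of the RhoA pathway of the contractile ring had small or imprecise differences, with Racgap1 at 0.12 ± 0.21, the exchange factor Ect2 at 0.28 ± 0.48 and the scaffold Anln at 0.41 ± 1.06. Racgap1 and Anln changed sign when single libraries were left out.

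In the chromosome structure role Top2a, the topoisomerase that separates sister DNA, stood at 2.92, 2.61 and 2.97 log2 RPKM in WT pre-cDC1 and at 3.94, 3.73 and 3.88 in KO. Mki67, whose product Ki-67 coats mitotic chromosomes and is the common marker of cycling cells, stood at 2.21, 1.91 and 2.49 in WT and 3.15, 3.26 and 3.51 in KO. Neither gene overlapped between groups. Top2a differed by 1.02 ± 0.22 (limma adjusted p = 0.153) and Mki67 by 1.11 ± 0.27 (adjusted p = 0.203). Among condensin genes, Ncapd2 differed by 0.86 ± 0.32, Smc2 by 0.76 ± 0.50, Ncapg by 0.45 ± 0.84 and Smc4 by 0.20 ± 0.19.

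Most lists of markers of other cells differed in the other direction in the same libraries, and erythroid markers mostly in the same direction as the 40 genes. The 20 T cell markers averaged -1.56 to -0.77 log2 RPKM in WT and -4.06 to -3.55 in KO pre-cDC1, with 19 of 20 lower in KO. The 20 NK cell markers averaged 0.02 to 0.33 in WT and -3.35 to -1.85 in KO, with 20 of 20 lower. Of 13 tested genes of the cDC2 programme 12 were lower, with a median of -1.54 (Cd209a -2.88 ± 0.39, limma adjusted p = 0.0526), and of 14 of the cDC1 programme 12 were higher, with a median of 0.34. The T cell list held 0.000907% to 0.00531% of the reads of a pre-cDC1 library, below the share of the 40 genes, and 3 to 7 of its genes had no read in the KO libraries. Of the other lists of cell markers, B cell genes were lower in 6 of 7 tested, plasmacytoid DC genes in 10 of 14, monocyte and neutrophil genes in 14 of 15, and red pulp macrophage genes in 8 of 8. Erythroid genes were higher in 9 of 13, with a median of 1.51. Their library averages overlapped, at -0.56 to 0.71 log2 RPKM in WT and -0.32 to 0.88 in KO. None of these lists held a called gene, and their part in the differences of the 40 genes was not tested.

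**Figure D3:**
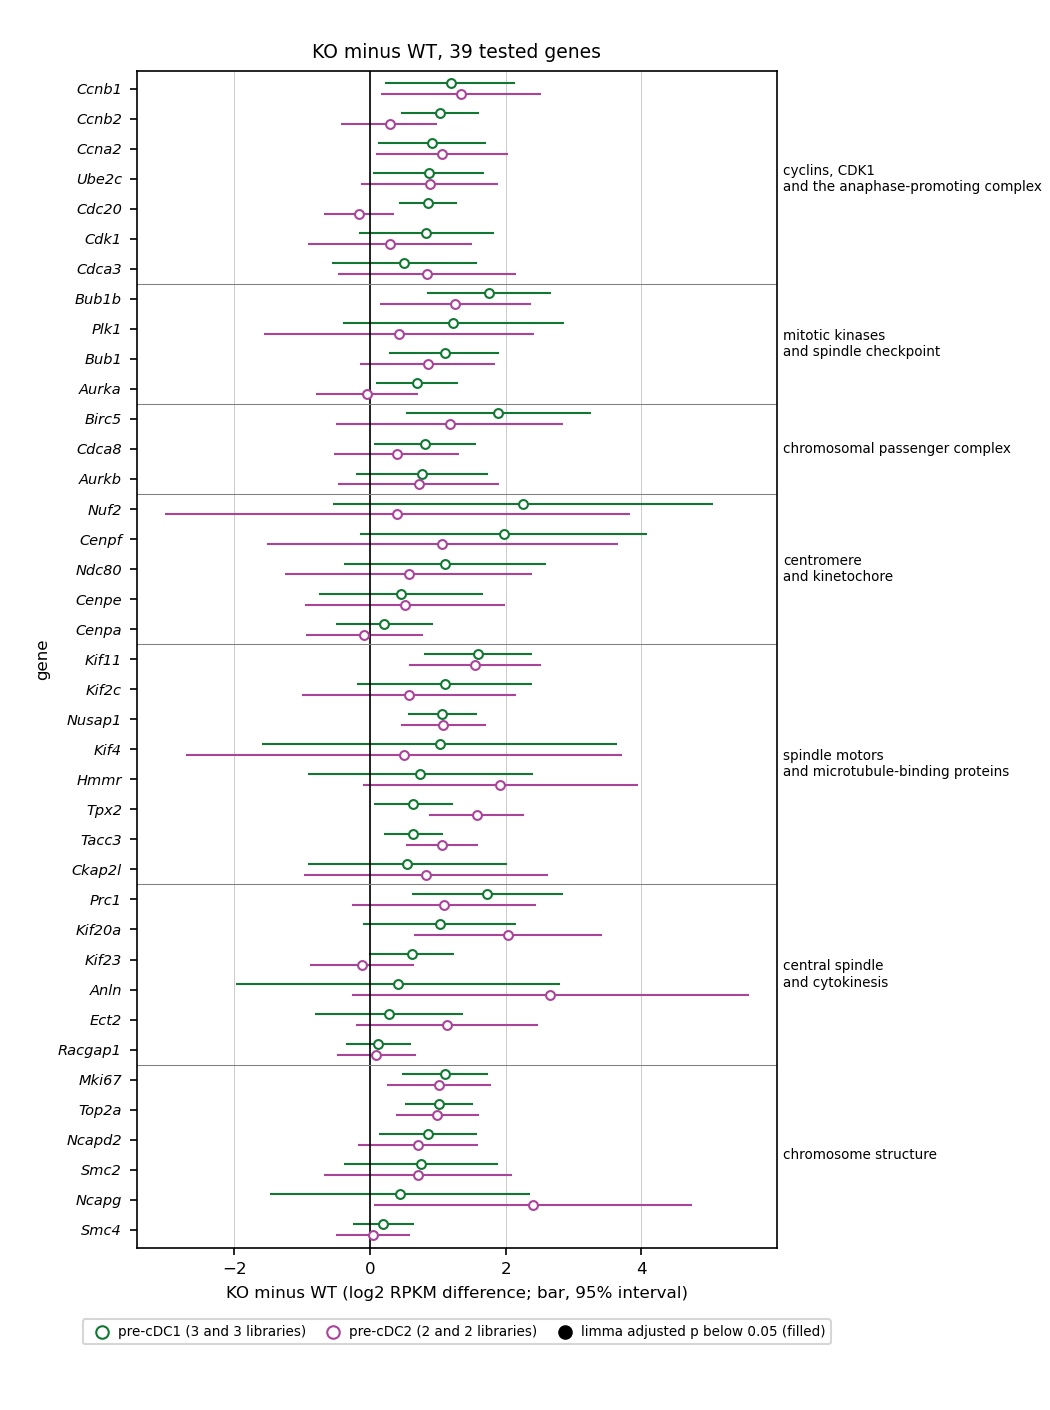
KO minus WT log2 RPKM difference of the 39 tested genes, grouped by role, in pre-cDC1 (3 and 3 libraries) and in pre-cDC2 (2 and 2 libraries), with 95% intervals from limma before adjustment. All points of pre-cDC1 lie to the right of 0 and 35 of pre-cDC2 do, and no point is filled because none had a limma adjusted p below 0.05.

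In pre-cDC2 the same comparison of KO with WT gave 35 of 39 genes higher, against 50.6% of all genes, and a median of 0.84 log2 (range -0.16 to 2.66) where the median of all genes was 0.00. No gene was called by limma (0 of 39; lowest adjusted p = 0.219), while 10 of all genes were (0.0676%). At an unadjusted p below 0.05 there were 11, all higher, against 3.56% of all genes, and voom on the recovered reads called 0. The KO libraries lay above the WT libraries for 18 genes, against 15.6% of all genes, and 16 differed by more than 1 log2, against 12.4%. With 2 libraries a group, a single library decided much of this. Without WT replicate 2 the median was 0.51 log2, and without WT replicate 3 it was 1.09. Without KO replicate 1 the median was 1.19, and without KO replicate 2 it was 0.55.

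Tpx2 had the smallest p in pre-cDC2. WT replicates 2 and 3 stood at 0.51 and 0.16 log2 RPKM and KO replicates 1 and 2 at 1.91 and 1.92, a difference of 1.58 ± 0.31 (limma adjusted p = 0.219). Tacc3 stood at 1.92 and 2.03 in WT and 2.90 and 3.17 in KO (1.06 ± 0.23; adjusted p = 0.316). For both spindle genes the WT libraries were close to each other and below the KO libraries, a pattern that choice by the smallest p favours. Nusap1 stood at 0.49 and 0.37 in WT and 1.51 and 1.51 in KO (1.08 ± 0.27; adjusted p = 0.412), and Top2a at 1.68 and 1.95 in WT and 2.50 and 3.12 in KO (0.99 ± 0.27; adjusted p = 0.447). Kif11 differed by 1.55 ± 0.43, Kif20a by 2.04 ± 0.61, Mki67 by 1.02 ± 0.33, Ccnb1 by 1.34 ± 0.52, Bub1b by 1.26 ± 0.49 and Ccna2 by 1.06 ± 0.42, with no overlap between groups for any of the 6. Ncapg differed by 2.40 ± 1.03, a value that rests on WT replicate 2 with 8 reads against 93 in replicate 3.

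By role, the medians in pre-cDC2 were 1.11 for central spindle and cytokinesis, 1.07 for spindle motors and microtubule-binding proteins, 0.85 for chromosome structure, 0.84 for cyclins, CDK1 and the anaphase-promoting complex, 0.72 for the passenger complex, 0.64 for kinases and checkpoint and 0.52 for centromere and kinetochore. The 4 genes that were not higher were Cdc20 (-0.16 ± 0.22), Kif23 (-0.12 ± 0.33), Cenpa (-0.08 ± 0.38) and Aurka (-0.04 ± 0.33). For 15 genes the KO libraries lay above the WT libraries in both cell types, among them Nusap1, Top2a, Kif11, Bub1b, Mki67 and Tpx2. The share of all tested genes with that pattern in both cell types was not counted, so the 15 has no background. The genes were also chosen with results of these libraries known, so the count is no independent evidence of a shared direction.

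Other cell types differed between these libraries as well. The T cell list averaged 2.03 and 6.38 log2 RPKM for WT pre-cDC2 and 5.95 and 5.88 for KO pre-cDC2, and the NK cell list 1.67 and 6.09 in WT and 6.07 and 5.98 in KO. For these lists WT replicate 3 was near the KO libraries and WT replicate 2 was apart. In the chromosome structure role WT replicate 3 was also nearer the KO libraries, though below both, with averages of 1.01 and 2.43 for WT and 2.55 and 2.85 for KO. So it was for the share of all reads taken by the 40 genes (0.0751% and 0.107% for WT, 0.113% and 0.136% for KO). For centromere and kinetochore it lay between the KO libraries (-0.79 and 0.48 for WT, -0.36 and 1.04 for KO). WT replicate 3 was below replicate 2 for the passenger complex (0.25 against 1.29), central spindle and cytokinesis (0.01 against 0.71) and spindle motors (-0.26 against 0.02). The average log2 RPKM of the 40 genes had both WT libraries (0.33 and 0.58) below both KO libraries (1.05 and 1.72). Erythroid genes averaged -2.85 and -1.84 in WT and 0.65 and 1.90 in KO, with 12 of 13 tested genes higher, and 2 of them called (Slc4a1 9.38 ± 0.82, limma adjusted p = 0.00394, and Hba-a1 3.46 ± 0.44, adjusted p = 0.0283). Neither WT library had a read of Slc4a1, which encodes an erythrocyte membrane transporter, and the KO libraries had 100 and 230. Erythroid genes took 0.0126% to 0.0199% of reads in WT and 0.0235% to 0.0351% in KO. The part of erythroid, T or NK cell RNA in the differences of the 40 genes was not tested.

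**Figure D4:**
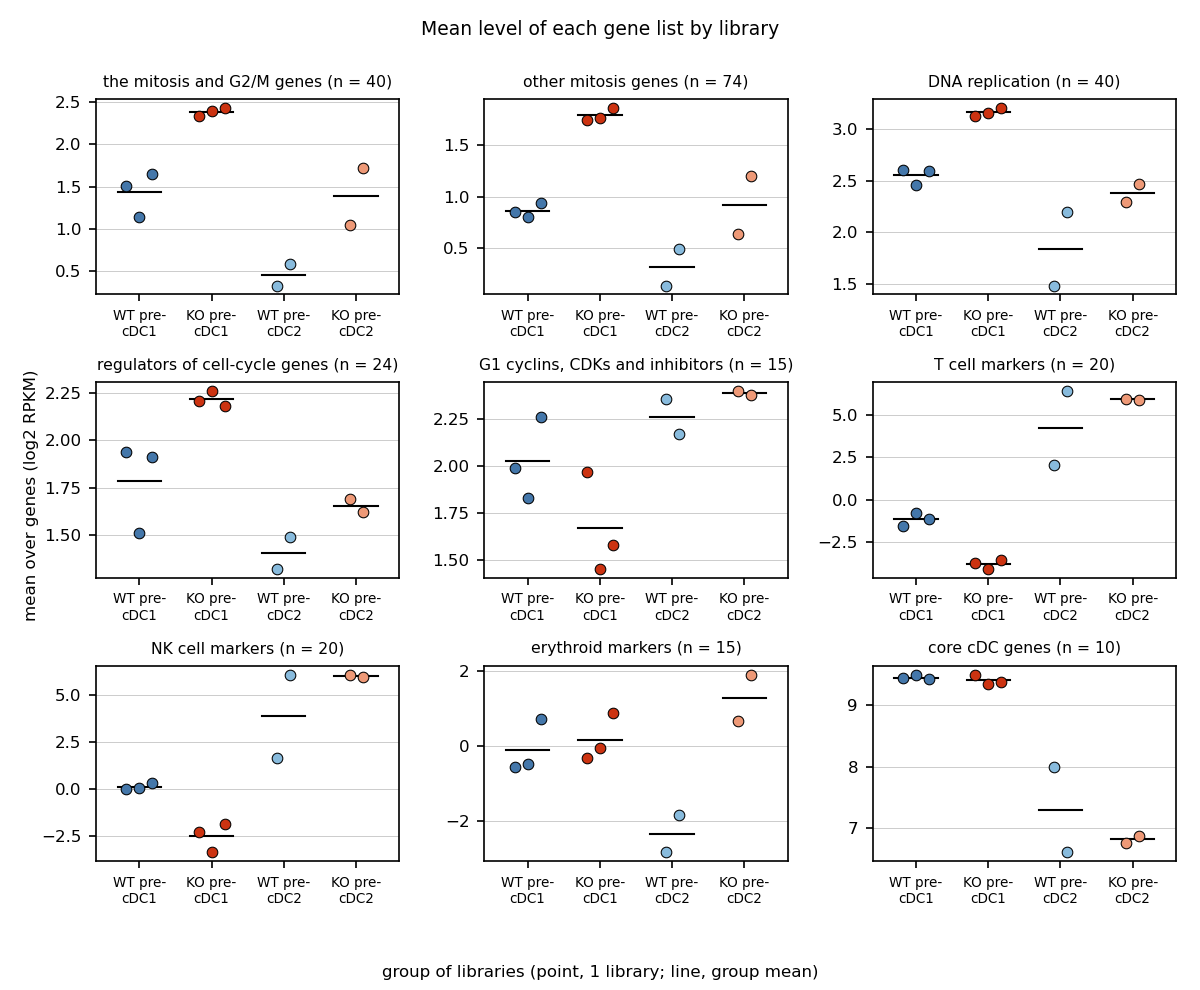
Mean log2 RPKM of the 40 genes and of 8 other gene lists by library (1 point each, horizontal bars for means of groups), with n giving the number of genes found in the table. The 40 genes, other mitosis genes and DNA replication genes are higher in KO than in WT in each cell type, T and NK cell markers part WT pre-cDC2 replicate 2 (2.03 and 1.67) from the other pre-cDC2 libraries, and erythroid markers are higher in KO than in WT pre-cDC2.

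The test of the difference between the cell types in the KO effect (interaction) called 0 of the 39 genes, where 3 of all genes were called (0.0203%), and the median was -0.09 log2. At an unadjusted p below 0.05 there were 2, 1 in each direction (all genes 2.99% higher and 1.83% lower), and voom called 0. Cdc20 had the smallest p. It was 0.86 higher in KO pre-cDC1 and -0.16 in KO pre-cDC2, where its levels were 2.76 and 2.96 log2 RPKM for WT and 2.84 and 2.56 for KO, an interaction of -1.02 ± 0.29 (limma adjusted p = 0.823). Tpx2 went the other way, with 2.42, 1.84 and 2.14 in WT and 2.81, 2.70 and 2.82 in KO pre-cDC1, and an interaction of 0.93 ± 0.39 (adjusted p = 0.987). Ccnb2 (2.12 and 2.50 in WT, 2.45 and 2.74 in KO pre-cDC2) had -0.75 ± 0.40 and Aurka -0.74 ± 0.42, both with an adjusted p of 0.987. Ncapg had an interaction of 1.96 ± 1.33, and of 3.85 without WT pre-cDC2 replicate 3. A difference between the cell types in the KO effect was thus detected for none of the 39 genes after adjustment, with this number of libraries.

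Averaged over the cell types, KO minus WT was above 0 for all 39 genes, against 49.0% of all genes, with a median of 0.85 log2. Limma called 0 (background 16 genes, 0.108%), and 19 had an unadjusted p below 0.05, all higher, against 4.79% of all genes. Nusap1 differed by 1.08 ± 0.17 (adjusted p = 0.0745), Top2a by 1.00 ± 0.17 (adjusted p = 0.0793), Tacc3 by 0.85 ± 0.15 (adjusted p = 0.0806) and Kif11 by 1.57 ± 0.28 (adjusted p = 0.0808). Voom called 0, and the average shares all its libraries with the 2 comparisons it combines. When each library was left out in turn, the median of the 39 genes ran from 0.75 to 1.08 log2. It was 1.05 without replicate 3 of WT pre-cDC2 and 0.87 without its replicate 2.

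Between the cell types most of the 40 genes were lower in pre-cDC2 than in pre-cDC1, in both genotypes. In WT 33 of 39 were lower, against 45.8% of all genes, with a median of -1.08 log2 where the median of all genes was 0.06. Limma called 8 lower, against 6.59% of all genes, and 1 higher, against 4.88%. The pre-cDC2 libraries lay below all pre-cDC1 libraries for 18 genes, against 18.5% of all genes, and above them for 3, against 20.2%, so the count without overlap was well above the background only in the lower direction. In KO 35 of 39 were lower, against 45.3%, with a median of -1.06 (all genes 0.09), and limma called 11 lower (background 10.1%) and 1 higher (10.7%). There 24 lay below without overlap (23.1%) and 3 above (28.6%). Scaling to total recovered reads moved the median of all genes to 0.27 in WT and 0.35 in KO, and relative to that the members stayed lower, with 6 called lower and 2 higher in WT (all genes 793 and 1132, against 975 and 722 before) and 7 lower and 2 higher in KO (1141 and 2385, against 1499 and 1575). Centring on library medians gave 1943 lower and 1327 higher of all genes in KO, with 14 and 1 of the members.

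The descriptions give a pre-cDC1 and a pre-cDC2 library of one genotype the same name and number, which may be a mouse. With that name as a replicate block, 1 of the 39 genes was called in WT (Racgap1; all genes 1.47%) and 2 in KO (Racgap1 and Kif23; all genes 7.4%), with medians of -1.0 and -1.03. All other calls of the 39 genes between the cell types were lost under that block. WT pre-cDC1 replicate 1 and KO pre-cDC1 replicate 3 have no partner in it, so each difference rests on 2 pairs. It also leaves fewer residual degrees of freedom than the fit without a block, where the medians were -1.08 and -1.06. The lost calls therefore do not show that the differences are absent. Of the calls between the cell types named below for genes of the other cell-cycle lists, those of Cks1b in WT and of Rrm2, Cdkn2d and Ccnd2 in KO held under it, and the other named ones were lost.

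Single libraries decided some calls. In place of the 9 calls in WT (all genes 11.5%) there were 5 without WT pre-cDC1 replicate 1 (6.76%) and 5 without its replicate 3 (7.68%). In place of the 12 in KO (all genes 20.8%) there were 7 without KO pre-cDC1 replicate 1 (15.5%). Without KO pre-cDC2 replicate 1 the median in KO was -0.65 log2. Racgap1, Nusap1, Kif23, Tacc3 and Tpx2 in WT and Racgap1, Kif23, Nusap1, Cdc20 and Bub1 in KO stayed called whichever library was left out, and each other call was lost without at least 1 library. The WT and KO comparisons share no library, but the fit pools the spread over all 10 libraries, so their p-values are not independent. Each also shares its libraries with the comparisons of genotype. T cell markers were higher in pre-cDC2 by a median of 10.27 in KO (20 of 20 called) and 5.38 in WT (13 of 20 called), and core cDC genes had medians of -3.05 and -2.60 (8 of 10 called lower in each). NK cell markers had medians of 8.81 in KO (19 of 20 called) and 4.0 in WT (4 of 20), and plasmacytoid DC markers 3.41 in KO (11 of 14 called) and 2.48 in WT (10 of 14), all of these higher in pre-cDC2. Erythroid markers were called lower for 4 of 13 and higher for 1 in WT, and higher for 1 in KO. The part of RNA from other cells in the differences of the 40 genes between the cell types was not tested.

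**Figure D5:**
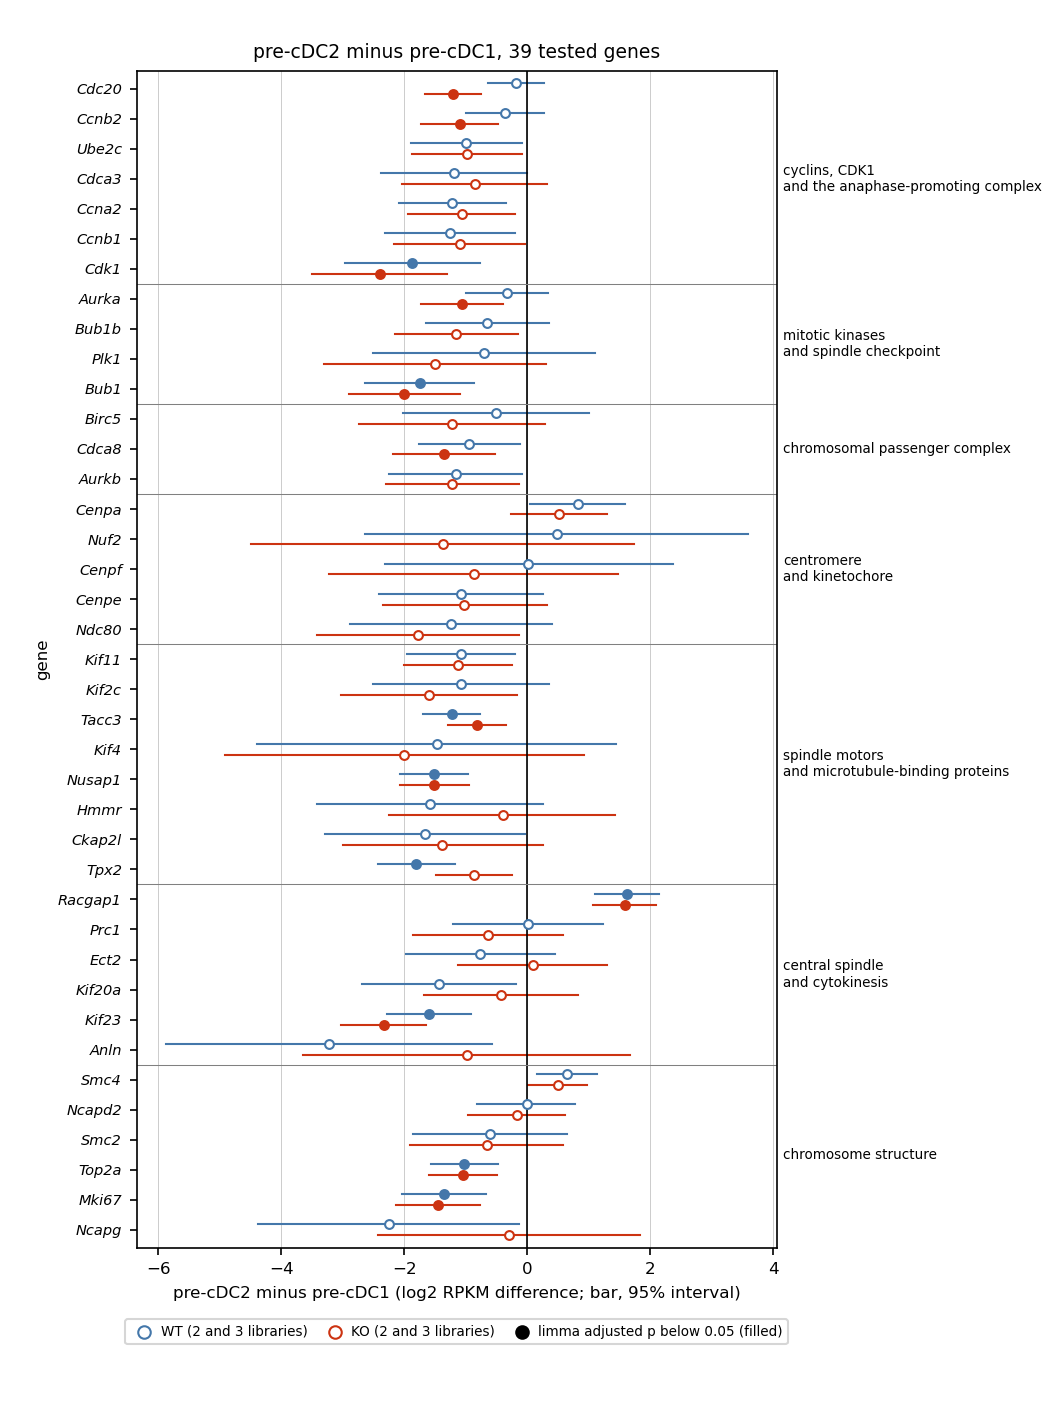
Pre-cDC2 minus pre-cDC1 log2 RPKM difference of the 39 tested genes, grouped by role, in WT and in KO (2 and 3 libraries each), with 95% intervals from limma before adjustment and filled points for a limma adjusted p below 0.05. Most points lie left of 0, and Racgap1 is the 1 filled point to the right in each genotype.

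The genes that limma called lower in pre-cDC2 in both genotypes were Nusap1, Tacc3, Kif23, Mki67, Bub1, Top2a and Cdk1, from 5 roles. Under the block on the name in the descriptions, none of the 7 stayed called in WT and Kif23 alone did in KO. Nusap1 was lower by -1.52 ± 0.25 in WT (limma adjusted p = 0.00488) and -1.51 ± 0.25 in KO (adjusted p = 0.0027). For Mki67 the values were -1.36 ± 0.30 (adjusted p = 0.0207) and -1.45 ± 0.30 (adjusted p = 0.00944), with pre-cDC2 levels of 0.74 and 0.95 (WT) and 1.51 and 2.22 (KO) log2 RPKM. All Mki67 libraries of pre-cDC2 thus lay below the pre-cDC1 libraries of their genotype. Cdk1 stood at 1.44, 2.24 and 1.24 in WT and 2.68, 2.25 and 2.48 in KO pre-cDC1, and at -0.68 and 0.23 in WT and -0.42 and 0.55 in KO pre-cDC2. Those are differences of -1.87 ± 0.48 (adjusted p = 0.0372) and -2.40 ± 0.48 (adjusted p = 0.00776). Bub1 stood at 1.07, 1.32 and 1.09 in WT and 2.10, 2.72 and 1.95 in KO pre-cDC1, against -0.80 and -0.38 in WT and 0.23 and 0.28 in KO pre-cDC2, and it fell by 1.75 in WT (adjusted p = 0.0217) and by 2.00 in KO (adjusted p = 0.00721). Top2a fell by 1.02 in WT (adjusted p = 0.0259) and by 1.04 in KO (adjusted p = 0.0152), and Tacc3, at 3.33, 3.08 and 3.21 in WT and 4.09, 3.88 and 3.58 in KO pre-cDC1, fell by 1.23 (adjusted p = 0.006) and 0.81 (adjusted p = 0.0235).

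Other calls came in 1 genotype, and whether the genotypes differ is the interaction given above. Tpx2 fell by 1.80 in WT (limma adjusted p = 0.00391), and in KO its value was -0.86 (adjusted p = 0.0562). In KO Cdc20 fell by 1.21 (adjusted p = 0.00318), Ccnb2 by 1.10 (adjusted p = 0.0224), Cdca8 by 1.35 (adjusted p = 0.0293) and Aurka by 1.06 (adjusted p = 0.0323). Cdca8 stood at 1.57, 1.07 and 2.19 in WT and 2.53, 2.33 and 2.39 in KO pre-cDC1, and at 0.61 and 0.74 in WT and 0.99 and 1.15 in KO pre-cDC2. Aurka stood at 1.82, 1.67 and 2.17 in WT and 2.77, 2.71 and 2.27 in KO pre-cDC1, and at 1.77 and 1.36 in WT and 1.5 and 1.54 in KO pre-cDC2. In WT the Aurka libraries of the 2 cell types overlapped, and in KO they did not. The values of Cdc20 in WT (-0.18 ± 0.20) were near 0 and turned to 0.03 when libraries were scaled to total reads.

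Racgap1 and Kif23 went opposite ways. Their products, a GTPase-activating protein and a kinesin, join in centralspindlin, the complex that organizes the midzone and positions the contractile ring. Racgap1 stood at 3.44, 3.60 and 4.13 in WT and 3.78, 3.90 and 3.87 in KO pre-cDC1, and at 5.08 and 5.61 in WT and 5.35 and 5.53 in KO pre-cDC2, in log2 RPKM. It rose by 1.62 ± 0.23 in WT (limma adjusted p = 0.00252) and by 1.59 ± 0.23 in KO (adjusted p = 0.00142), on 689 to 1265 reads for each pre-cDC1 library and 2832 to 3841 for each pre-cDC2 library. Kif23 stood at 2.56, 2.55 and 2.27 in WT and 3.17, 3.12 and 2.94 in KO pre-cDC1, and at 1.28 and 0.46 in WT and 0.83 and 0.66 in KO pre-cDC2. It fell by 1.59 in WT (adjusted p = 0.0103) and by 2.33 in KO (adjusted p = 0.000866). Per length, the level of Racgap1 exceeded that of Kif23 by 0.60 to 1.86 log2 in the pre-cDC1 libraries and by 3.80 to 5.14 in the pre-cDC2 libraries. The Racgap1 window held a CCAAT 12 bases before the start and a TTTGAA at base 5 after it, and that of Kif23 had them 7 bases before and at base 2 after.

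Smc4 and Cenpa were the other genes with pre-cDC2 libraries above all pre-cDC1 libraries in both genotypes. As log2 RPKM, Smc4 stood at 4.65, 4.67 and 4.76 in WT and 4.99, 4.93 and 4.74 in KO pre-cDC1, and at 4.94 and 5.74 in WT and 5.48 and 5.30 in KO pre-cDC2, differences of 0.65 ± 0.22 (limma adjusted p = 0.0916) and 0.50 ± 0.22 (adjusted p = 0.144). For Smc2, its partner in every condensin complex, the values were -0.61 ± 0.56 and -0.66 ± 0.56. The level of Smc4 per length exceeded that of Smc2 by 1.48 to 2.76 log2 in pre-cDC1 and by 2.98 to 4.45 in pre-cDC2. Cenpa differed by 0.82 ± 0.35 (adjusted p = 0.178) in WT and 0.52 ± 0.35 (adjusted p = 0.332) in KO. Neither gene passed the test, unlike Racgap1.

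The rest of the cell-cycle programme was followed with other lists. Of the 67 tested among 74 further mitosis genes in the table, 60 were higher in KO pre-cDC1, with a median of 0.78 and 0 called by limma (18 at an unadjusted p below 0.05, all higher). The kinase Melk differed by 1.65 ± 0.39 (adjusted p = 0.199), the CDK subunit Cks1b by 0.89 ± 0.24 (adjusted p = 0.259) and Incenp, the scaffold of the passenger complex, by 0.81 ± 0.23 (adjusted p = 0.274). In pre-cDC2 47 of the 67 were higher, with a median of 0.46 and 0 called (13 at an unadjusted p below 0.05, all higher). There Kif22 differed by 1.67 ± 0.37, Cdca2 by 2.99 ± 0.81 and Pbk by 1.53 ± 0.46. Of the same 67, 8 were called lower in pre-cDC2 than in pre-cDC1 in WT (all genes 6.59%), Cks1b first (-1.86 ± 0.27, adjusted p = 0.003), and 13 lower and 2 higher in KO (all genes 10.1% and 10.7%).

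The DNA replication list held 40 genes, all tested. In pre-cDC1 36 of 40 were higher in KO, with a median of 0.60, 0 called and 11 at an unadjusted p below 0.05, all higher. Rrm2, a subunit of ribonucleotide reductase, had log2 RPKM levels of 3.64, 3.47 and 3.45 in WT and 4.71, 4.61 and 4.40 in KO pre-cDC1 (1.06 ± 0.17; limma adjusted p = 0.0745), and at 1.65 and 1.70 in WT and 2.81 and 3.23 in KO pre-cDC2 (1.35 ± 0.21; adjusted p = 0.0837). Averaged over the cell types it rose by 1.20 ± 0.14 (adjusted p = 0.0194), the 1 called gene of the cell-cycle lists in any comparison of KO with WT. That call depended on the fit. It was lost with the replicate number as a block, where 0 of all tested genes were called in the average. Leaving out either WT replicate 1 or KO replicate 3 of pre-cDC1 also gave 0 calls among all tested genes, so Rrm2 was not called there. Uhrf1, which maintains DNA methylation at the fork, differed by 1.23 ± 0.27 in pre-cDC1 (adjusted p = 0.164) and the helicase subunit Mcm3 by 0.67 ± 0.17 (adjusted p = 0.219). In pre-cDC2 36 of 40 were higher in KO, with a median of 0.48, 0 called and 7 at an unadjusted p below 0.05. Of the pre-cDC2 libraries, WT replicate 2, which stands apart, had a mean of 1.48 log2 RPKM over the list. The mean was 2.20 for WT replicate 3 and 2.29 and 2.47 for the KO libraries, so WT replicate 3 was close to the KO libraries. Against pre-cDC1, 6 of 40 were called lower in pre-cDC2 in WT (all genes 6.59%) and 9 of 40 in KO (all genes 10.1%), among them Rrm2 (-1.84 ± 0.19, adjusted p = 0.000443, and -1.55 ± 0.19, adjusted p = 0.000671).

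Regulators of these genes formed a list of 23 tested. In pre-cDC1 17 of 23 were higher in KO, with a median of 0.13, 0 called and 4 at an unadjusted p below 0.05. Those 4 were Lin54, the CHR-binding subunit of MuvB (0.98 ± 0.32, limma adjusted p = 0.366), Tfdp1, the partner of E2F proteins (0.81 ± 0.29, adjusted p = 0.43), Mybl2 (1.46 ± 0.59, adjusted p = 0.499) and Foxm1 (1.08 ± 0.47, adjusted p = 0.545). The log2 RPKM of Foxm1 was 0.96, 0.71 and -0.37 in WT and 1.42, 1.54 and 1.57 in KO pre-cDC1, and Mybl2 at -0.08, 0.12 and 1.13 in WT and 1.51, 1.87 and 2.16 in KO. Both sets of KO libraries lay above the WT libraries. The values of E2f1 (-0.04 ± 0.26) and of the pocket proteins Rbl1 (0.49 ± 0.26) and Rbl2 (-0.03 ± 0.19) had no unadjusted p below 0.05. In pre-cDC2 14 of 23 were higher in KO, with a median of 0.10 and 0 called, and 1, Foxm1 (1.76 ± 0.58, adjusted p = 0.58), had an unadjusted p below 0.05. Mybl2 there was 0.46 ± 0.72.

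Between the cell types limma called 3 of the 23 regulators lower and 1 higher in pre-cDC2 in WT (all genes 6.59% and 4.88%), and 3 lower and 2 higher in KO (all genes 10.1% and 10.7%), counts of a few genes near those shares. E2f2 fell in pre-cDC2 by 3.55 in WT (limma adjusted p = 0.00136) and by 2.50 in KO (adjusted p = 0.00428), and E2f1 by 1.49 (adjusted p = 0.0108) and 1.72 (adjusted p = 0.00301). E2f5 fell by 1.24 in WT (adjusted p = 0.048) and Mybl2 by 2.19 in KO (adjusted p = 0.0439). Myb rose by 2.48 ± 0.69 in WT (adjusted p = 0.0481). In KO Rbl2 rose by 1.16 ± 0.22 (adjusted p = 0.00528) and the MuvB subunit Lin52 by 0.94 ± 0.29 (adjusted p = 0.0472). Calls in 1 genotype alone do not show that the genotypes differ.

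G1 cyclins, CDKs and inhibitors were the last list. In pre-cDC1 4 of 12 tested were higher and 8 lower in KO, with a median of -0.21 and 0 called. At an unadjusted p below 0.05 were cyclin E2 (Ccne2, 1.46 ± 0.45, limma adjusted p = 0.329), which acts at the start of S phase, and in the other direction Cdk4 and the CDK inhibitor genes Cdkn1a (-1.04 ± 0.43, adjusted p = 0.503) and Cdkn2d (-0.80 ± 0.33, adjusted p = 0.509). In pre-cDC2 4 were higher and 8 lower, with a median of -0.14 and 0 called, and the inhibitor gene Cdkn2c (-1.16 ± 0.41, adjusted p = 0.632) was alone at an unadjusted p below 0.05. Between the cell types Cdkn2d (2.17 ± 0.37 in WT, adjusted p = 0.006, and 2.72 ± 0.37 in KO, adjusted p = 0.00104), the D cyclin genes Ccnd2 (2.46 ± 0.59, adjusted p = 0.0261, and 3.86 ± 0.59, adjusted p = 0.00186) and Ccnd3 (0.67 ± 0.12, adjusted p = 0.00843, and 0.84 ± 0.12, adjusted p = 0.00149) rose in pre-cDC2. In KO Ccne2 fell by 1.68 (adjusted p = 0.0414) and Ccnd1 by 1.16 (adjusted p = 0.0415). Among the pre-cDC2 libraries, WT replicate 2, the one with the least T and NK cell RNA, had Ccnd2 at 3.14 log2 RPKM against 5.05 to 5.65 in the other 3. In the same library Cdkn2d stood at 6.94 against 6.18 to 6.39, Ccnd3 at 6.16 against 6.00 to 6.12, and Ccnd1 at 6.07 against 4.56 to 5.12. It was thus lowest for Ccnd2 and highest for the other 3 genes, and the part of RNA from other cells was not tested.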

How the data were processed

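RNA sequencing was done on 10 libraries from the 2 kinds of splenic cDC precursor. Per the labels' protocols, 2 ng of PicoPure RNA per library, with ERCC controls added, entered the SMARTSeq v2 protocol. Per the submitters' processing notes, STAR 2.3, featureCounts 1.5.0, edgeR and R 3.3.3 were used with GRCm38 (mm10). The sources used here do not name the annotation release or strand setting. The deposited values are log2 RPKM, which the authors made from gene counts.

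Whole reads were recovered from all 490350 values (within 0.001) of the 49035 genes with a length in GENCODE vM21, and for 3426 more. They gave totals, Ttk's ratio and the voom alternative. Genes above 0 log2 RPKM in at least 2 libraries were tested (14787) with limma 3.58.1 in R 4.3.3 on the deposited values, with 4 group means, eBayes with a trend (6 residual and 3.31 prior degrees of freedom), two-sided, without a further pseudocount, and with Benjamini-Hochberg adjustment over all tested genes in each of 6 comparisons at a threshold of 0.05. Confidence intervals are at 95%. The procedure was tested on simulated data.

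The members, roles, other lists and marker lists were chosen with earlier results of these data known. Every member may be named. Values in every library are given for the 8 members with the smallest p in KO against WT pre-cDC1, the 4 with the smallest p in each other comparison and every called member. Of other lists, called genes (at most 6 by p) or the 3 with the smallest p are named, with Foxm1, Mybl2, E2f1, Rbl1 and Rbl2 always. Ccnd1, Ccne2 and Cdk4 in other comparisons, the defining cell markers, and Slc4a1, Hba-a1 and Cd209a were added as context. Reads were amplified without molecular identifiers, so counting intervals cover counting error only. Alternatives were another filter or none, 1 RPKM added, quantile normalization, centring on medians, eBayes without trend, only the groups compared, library weights, replicate blocks, voom and leaving out each library. Scaling to total recovered reads was added after seeing the data.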

Additional observations from a re-analysis of the deposited data

How the results depend on the processing

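The direction of each median kept its sign under every alternative, except that of the interaction, which ran from -0.40 to 0.21 log2 when single libraries were left out and was 0.02 with the replicate number as a block. Leaving out each library in turn gave 0 to 5 called genes in KO against WT pre-cDC2 (median 0.51 to 1.19), 5 to 11 in pre-cDC2 against pre-cDC1 in WT, 5 to 16 in KO (median -1.32 to -0.65), 0 to 1 in the interaction and 0 to 10 in the average over cell types. With 1 library left in a group, that library is assumed to vary like the others.

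With only the groups compared in the fit, 1 gene was called in KO against WT pre-cDC1 (all genes 0.358%) and 1 between the cell types in WT (3.11%). Library weights gave 5 between the cell types in WT (all genes 5.81%), and eBayes without a trend gave 2 in the average (0.304%). With 1 RPKM added before the log2, which shrinks low genes by construction, the medians were 0.48 in KO against WT pre-cDC2, -0.66 between the cell types in WT and 0.57 in the average. For the cell types in KO the median was -1.33 with quantile normalization and -0.80 with scaling to total recovered reads. That scaling turned Cdc20 in WT to 0.03. The cause was not tested for the other settings.

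Same-numbered WT and KO pre-cDC1 libraries had correlations of deviations from their group means of -0.030, 0.004 and 0.007. Pre-cDC1 and pre-cDC2 libraries with the same name in the descriptions had -0.020 and 0.013 in WT, and 0.028 and 0.004 in KO. Deviations within groups of 2 or 3 libraries constrain one another, so these values do not decide whether libraries are paired. With the number as a replicate block 0 genes were called in KO against WT in either cell type. Between the cell types 7 were called in WT (all genes 7.87%) and 10 in KO (18%), and Ncapg turned to 0.08 in the last. With the name in the descriptions as a replicate block, 1 and 2 were called between the cell types (all genes 1.47% and 7.4%).

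Among single genes, leaving out a library turned the sign of Racgap1 (-0.02 to 0.33), Anln (-0.12 to 0.90), E2f1 (-0.20 to 0.17) and Rbl2 (-0.09 to 0.08) in KO against WT pre-cDC1, of Mybl2 (-0.44 to 1.36) in pre-cDC2, and of Ccnd1 in WT (-1.50 to 0.02) and Kif20a in KO (-0.87 to 0.04) between the cell types.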

Other observations

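The promoter motifs that most of the mitosis and G2/M genes hold were also counted in the other tested genes. With both CCAAT and TTTGAA in the window there were 501 other tested genes, and 49.7% of them were higher in KO than in WT pre-cDC1, with a median difference of -0.01 log2. All 24 tested members with both motifs were higher, with a median of 0.85. The 6 members with 1 of the motifs had a median of 1.1, and the 4 with neither (Birc5, Nuf2, Nusap1 and Tacc3) one of 1.48. In pre-cDC2 the median was 0.77 for the members with both and 0.03 for the other genes with both. For pre-cDC2 against pre-cDC1 in WT these medians were -0.85 and -0.01. No test was made on these classes.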
